A study of Homo sapiens with 12 samples.

Results

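The genes described here encode the nuclear pore complex: 31 nucleoporin genes, picked by gene name (one identifier each) from the 64253 genes of the count table. RNA was sequenced from JEKO-1, an established cell line of human mantle cell lymphoma, kept for 48 h in 1 of 4 conditions. These were KPT-330 together with choline salicylate (KPT-330+CS), KPT-330 alone, choline salicylate alone (CS) and DMSO, with 3 libraries in each. KPT-330 (selinexor) inhibits XPO1, the main exporter of proteins from the nucleus, and was dissolved in DMSO. Choline salicylate is a salicylate salt and was diluted in PBS. The labels do not say whether the CS libraries also received DMSO. In comparisons that use CS alone, drug and solvent therefore cannot be told apart. All libraries come from that 1 line. The labels give dose ranges but not the doses of these libraries, and do not say that replicates were separate cultures. The p-values therefore reflect only how these libraries vary, which may be technical variation.

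Nuclear pores are large channels through the nuclear envelope, built from many copies of each nucleoporin. Outer and inner rings form the scaffold, membrane proteins anchor it, and phenylalanine-glycine (FG) repeat proteins fill the channel and bind transport receptors. Filaments reach into the cytoplasm and a basket into the nucleus. Cargo leaves with exporters such as XPO1, bound to the small GTPase Ran, and NUP214 and RANBP2 on the cytoplasmic side bind XPO1 as it exits.

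Library totals ran between 35325563 and 59490178 counts. Levels are CPM, reads of a gene relative to the size of the library after scaling by TMM, an edgeR normalization. JEKO-1 identity was checked with a B cell and mantle cell lymphoma list, which summed to between 2176 and 3165 CPM in every library, CCND1 (cyclin D1) at 302 to 585 CPM among them. T cell, myeloid and epithelial marker lists summed to at most 3.27, 5.38 and 3.34 CPM, and KRT19 had no reads. XPO1 itself stood at 1471, 1501 and 1624 CPM with KPT-330+CS, 1556, 1619 and 1551 CPM with KPT-330, 943, 882 and 842 CPM with CS, and 749.9, 863 and 923 CPM with DMSO. All 6 libraries with KPT-330 were above all 6 without it, and XPO1 rose on the log2 scale in KPT-330+CS by 0.86 ± 0.07 (SE), adjusted p = 5.19e-07, and in KPT-330 by 0.90 ± 0.07 (SE), adjusted p = 7.64e-07, in edgeR's quasi-likelihood test. In bulk RNA, fewer cells of one kind and less RNA per cell cannot be told apart.

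The promoter sequences of the 5 nucleoporin genes that fell most with KPT-330+CS, and of the 4 genes with no call there that had a promoter entry, are shown side by side. Genes with no call are not all those that changed least. AAAS had no call at a log2 fold change of −0.29, and POM121C was called at −0.21. Each is the 120 bases just before the RefSeq start (GRCh38.p14), written 5′ to 3′ in the gene's direction. For NUP35 and AAAS the counted gene model begins well upstream of the stretch, at chr2:183117513 and chr12:53324864. For TPR and NUP62 it also begins upstream, at chr1:186375693 and chr19:49929763. For NUP54, NUPL1 and NUP93 it begins inside the stretch, at chr4:76148515, chr13:25301524 and chr16:56730105. Which start these cells use was not tested. Capitals mark the core of the binding site of ETS transcription factors, CCGGAA, or TTCCGG where it lies on the other strand. The 5 genes that fell most were NUP62, NUP93, NUPL1, NUP210 and NUP35.
NUP62, chr19:49929505-49929624, minus strand: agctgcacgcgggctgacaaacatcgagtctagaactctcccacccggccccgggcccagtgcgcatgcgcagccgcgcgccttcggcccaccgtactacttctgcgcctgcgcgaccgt
NUP93, chr16:56730009-56730128, plus strand: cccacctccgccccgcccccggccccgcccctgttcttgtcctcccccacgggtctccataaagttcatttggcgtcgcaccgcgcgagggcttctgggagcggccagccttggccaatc
NUPL1, chr13:25301505-25301624, plus strand: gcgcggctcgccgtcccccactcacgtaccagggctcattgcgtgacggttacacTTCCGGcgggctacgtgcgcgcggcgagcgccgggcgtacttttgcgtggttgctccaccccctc
NUP210, chr3:13420323-13420442, minus strand: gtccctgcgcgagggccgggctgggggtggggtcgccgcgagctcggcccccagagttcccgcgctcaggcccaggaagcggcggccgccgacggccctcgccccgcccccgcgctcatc
NUP35, chr2:183124323-183124442, plus strand: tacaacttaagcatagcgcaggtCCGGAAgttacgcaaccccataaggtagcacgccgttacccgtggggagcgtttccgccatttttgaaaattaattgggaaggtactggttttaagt
The 4 genes with no call were TPR, NUP54, POM121 and AAAS.
TPR, chr1:186375254-186375373, minus strand: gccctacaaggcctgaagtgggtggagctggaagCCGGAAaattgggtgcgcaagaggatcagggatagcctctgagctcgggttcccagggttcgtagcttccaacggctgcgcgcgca
NUP54, chr4:76148398-76148517, minus strand: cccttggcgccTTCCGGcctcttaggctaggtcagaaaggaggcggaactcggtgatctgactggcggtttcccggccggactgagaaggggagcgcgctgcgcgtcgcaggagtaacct
POM121, chr7:72879237-72879356, plus strand: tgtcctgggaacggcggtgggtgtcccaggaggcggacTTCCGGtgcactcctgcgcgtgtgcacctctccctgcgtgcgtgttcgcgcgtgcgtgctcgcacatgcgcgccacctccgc
AAAS, chr12:53321611-53321730, minus strand: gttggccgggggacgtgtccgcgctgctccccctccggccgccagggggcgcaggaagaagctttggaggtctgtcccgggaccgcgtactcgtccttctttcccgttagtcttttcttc

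Promoter entries, of 250 bases before and 50 after the start, were found for 29 of the 31 genes (not AHCTF1 and NUP43). The ETS core was in 15 of the 29 nucleoporin promoters (51.7%), searched on both strands, against 17.2% of 35116 human promoters of the same length. That background was not limited to expressed genes or matched for GC content, and repeated gene names were kept in it. POM121 and POM121C, whose promoters are much alike, both count among the 15. Whether the difference is particular to nucleoporin genes was not tested. There were 21 cores in all, 15 of them within 100 bases before the start or after it. Of the genes that fell with KPT-330+CS, 12 of 25 promoters had it, and of the genes with no call 3 of 4. NUP160, the nucleoporin with the highest level per length, had 2 cores, and NUP62, the one that fell most, had none. The NF-Y box CCAAT was in 37.9% of nucleoporin promoters and 34.6% of all promoters, and the SP1 box GGGCGG in 41.4% and 45%. The E-box CACGTG was in 6.90% and 7.26%, the cell cycle element TTTGAA in 20.7% and 15.2%, and the NRF1 motif GCATGCG in 10.3% and 3.91%. No motif's letters contain those of another, both strands were searched for each, and a match is only a match of letters.

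Levels were compared between nucleoporin genes per length, as CPM per kilobase of gene model (RPKM). The outer ring scaffold gene NUP160 was highest, at 37.5 ± 1.87 RPKM in KPT-330+CS and 55.6 ± 4.81 RPKM in DMSO (SD, n = 3 each). NUP98 and TPR followed, at 36.0 ± 2.36 and 30.2 RPKM in DMSO. The lowest were POM121C at 5.23 RPKM in KPT-330+CS and 6.07 RPKM in DMSO, POM121 at 5.98 and 6.48 RPKM, and NUP62 at 4.28 and 8.33 RPKM. NUP62 thus ranked 31 of 31 with both drugs and 29 of 31 in DMSO, where NUP214, next above it, was also at 8.33 RPKM. NUP43 and NUP54, which were not called, ranked 7 and 5 with both drugs and 18 and 16 in DMSO. Summed over the 31 genes, the level was 3399 to 3603 CPM in KPT-330+CS, 4084 to 4126 CPM in KPT-330, 4339 to 4479 CPM in CS and 4606 to 5048 CPM in DMSO. On this TMM scale these 4 ranges did not overlap, which was not compared with other sets of genes. Without TMM scaling, the genes held 0.4245% to 0.4301% of all counts with KPT-330 and 0.4247% to 0.4352% with CS. On that scale the KPT-330 and CS ranges overlapped.

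**Figure D1:**
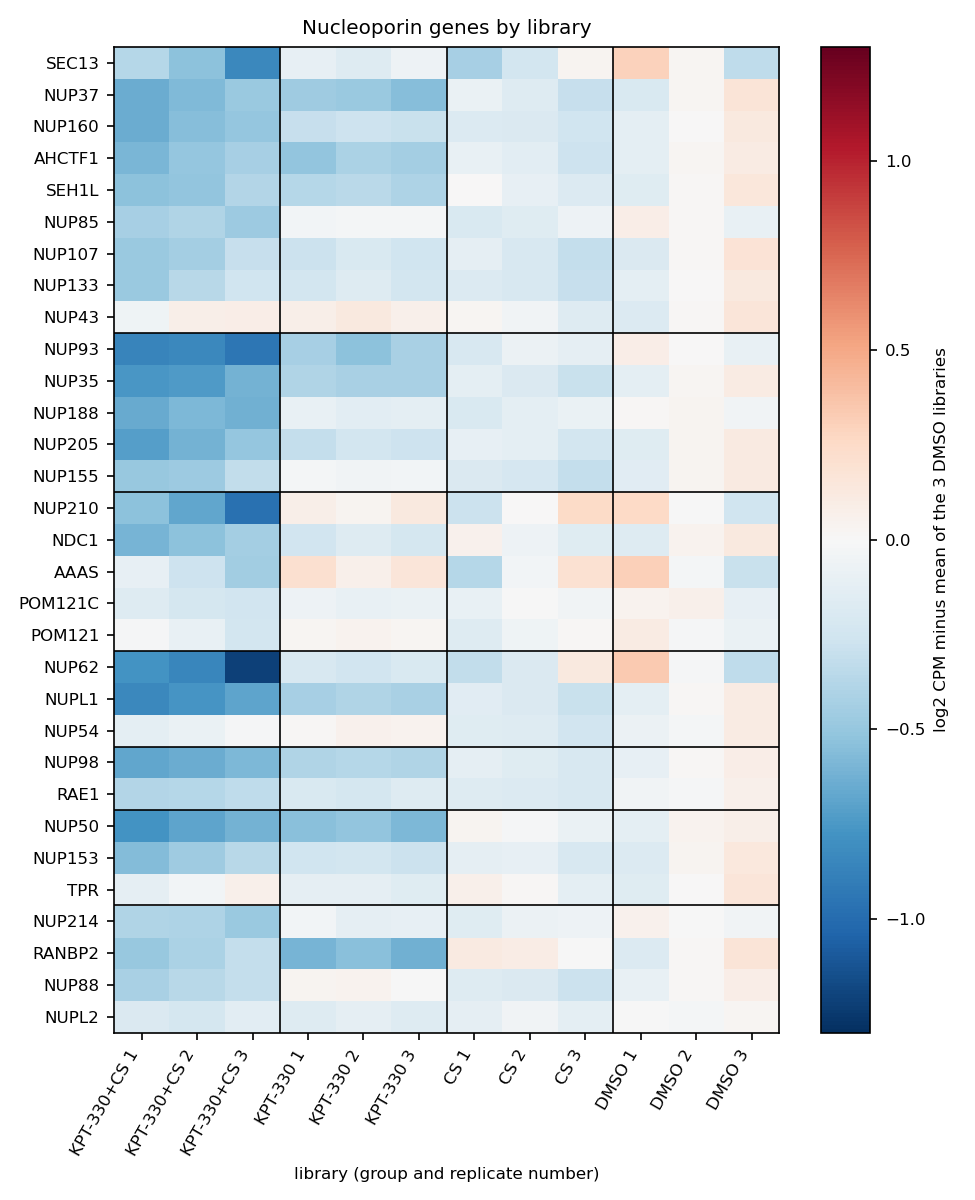
Level of each of the 31 nucleoporin genes (rows, grouped by place in the pore, from outer ring at the top to cytoplasmic filaments) in each library (columns), as log2 CPM minus the mean of the 3 DMSO libraries. All 3 KPT-330+CS columns are below the DMSO mean in every row except NUP43 and TPR, and single DMSO libraries differ from each other in opposite ways in NUP62 and TPR.

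With KPT-330+CS against DMSO, 26 of 31 nucleoporin genes fell and none rose, counted at an adjusted p of 0.05 or less (edgeR's quasi-likelihood test, Benjamini-Hochberg over 19460 genes). Over all tested genes 26.2% were lower and 29.3% higher. The median log2 fold change was −0.46 over the 31 genes and 0.04 over all genes. In each of the 26 genes the 3 treated libraries lay below the 3 DMSO libraries, and all 26 calls held without any 1 library. Here and below, such separation was not counted over all genes, and a call already favours it. Scaled by library size alone, which moved the median of all genes to 0.23, 23 genes fell (NUPL2, POM121C and SEC13 lost the call) and NUP43 and NUP54 rose. In a fit of these 2 groups alone NUPL2 and POM121C lost the call. None of the 31 changed by more than 2 on the log2 scale, the limit that the study set.

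Of the 5 inner ring genes, which build the scaffold nearest the membrane, all 5 fell, with a median of −0.62. NUP93 links this ring to the channel proteins. NUP93 had 113, 115 and 106 CPM with KPT-330+CS, 151, 142 and 153 CPM with KPT-330, 177, 193 and 188 CPM with CS, and 217, 206 and 191 CPM with DMSO. The groups were stepped, with KPT-330+CS lowest, KPT-330 next, and one CS library inside the DMSO range. NUP93 fell by 0.88 ± 0.06 on the log2 scale (SE, adjusted p = 4.97e-08). NUP35, a membrane-binding member of the ring, had 25.1, 25.4 and 27.7 CPM with KPT-330+CS, 32.4, 31.6 and 31.7 CPM with KPT-330, 38.7, 37.3 and 34.7 CPM with CS, and 38.8, 43 and 45.7 CPM with DMSO. The treated groups stood in the same order as for NUP93, and the log2 fold change with both drugs was −0.70 ± 0.07 (SE), adjusted p = 2.56e-06. NUP188, a large scaffold protein, had 111, 116 and 113 CPM with KPT-330+CS, 164, 159 and 159.7 CPM with KPT-330, 153, 160.4 and 165 CPM with CS, and 176, 179 and 169 CPM with DMSO. The KPT-330+CS libraries lay farthest below DMSO, at −0.62 ± 0.05 (SE), adjusted p = 1.63e-07. NUP155, a scaffold protein that touches the membrane, had 122, 124 and 137 CPM with KPT-330+CS, 169, 166 and 167 CPM with KPT-330, 151, 147 and 139 CPM with CS, and 155, 175 and 186 CPM with DMSO. NUP205, a large relative of NUP188, had 122, 131 and 141 CPM with KPT-330+CS, 162, 170.0 and 166 CPM with KPT-330, 186, 183 and 169.9 CPM with CS, and 180.1, 206 and 218 CPM with DMSO. With the single drug, the KPT-330 libraries of NUP205 were all below its DMSO libraries, and those of NUP155 lay within the DMSO range.

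The central channel is a trimer of the FG proteins encoded by NUP62, NUPL1 (now named NUP58) and NUP54, and it split. NUP62 had 28.7, 27.3 and 21.3 CPM with KPT-330+CS, 42.6, 41.6 and 42.9 CPM with KPT-330, 39.5, 43.2 and 53.6 CPM with CS, and 62.5, 48.7 and 39.2 CPM with DMSO. The 3 DMSO values were spread widely, but all were above the 3 values with both drugs. NUP62 fell by 0.96 ± 0.16 on the log2 scale (SE, adjusted p = 0.000161), the lowest fold change of the 31. NUPL1 had 132, 139 and 147 CPM with KPT-330+CS, 175, 181 and 177 CPM with KPT-330, 214, 208 and 194 CPM with CS, and 217, 239.8 and 254 CPM with DMSO, a difference of −0.77 ± 0.06 (SE), adjusted p = 3.72e-07. NUP54 had 78.2, 80.6 and 84.7 CPM with KPT-330+CS, 86.4, 88.9 and 88.4 CPM with KPT-330, 76.3, 75.9 and 71.7 CPM with CS, and 80.8, 83.7 and 92.1 CPM with DMSO. Its KPT-330+CS and DMSO values overlapped, and the difference of −0.08 ± 0.06 did not pass (adjusted p = 0.288).

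**Figure D2:**
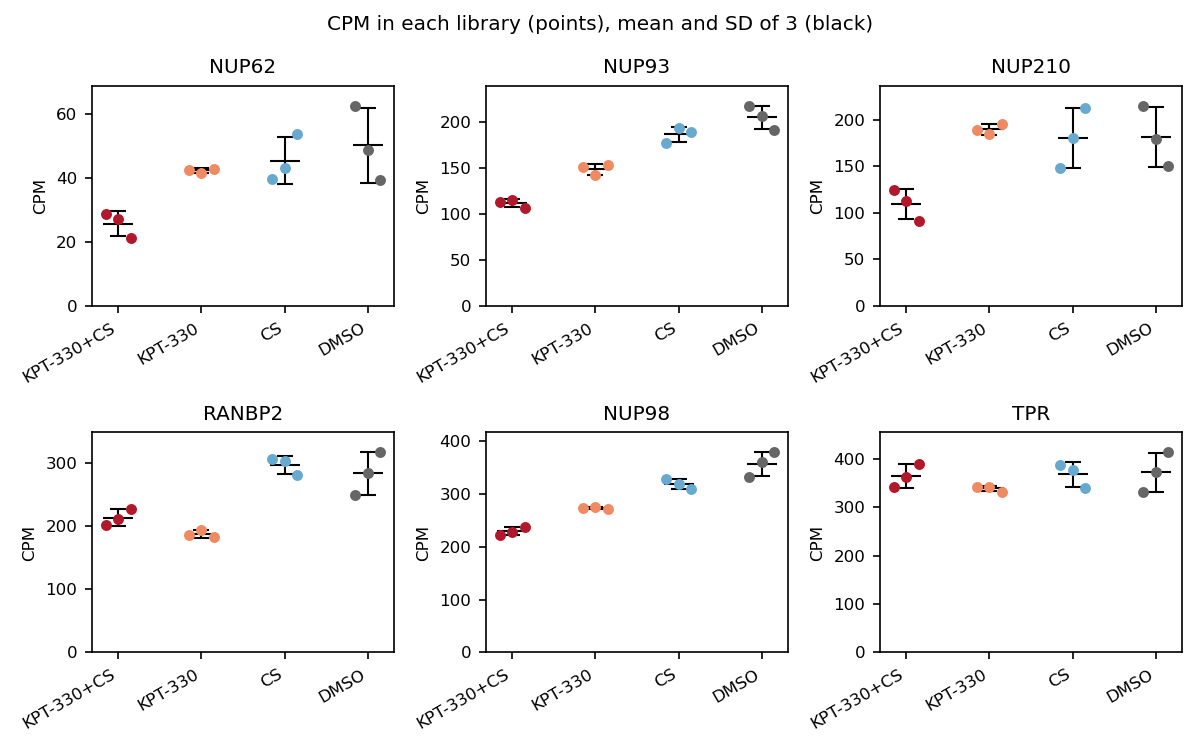
CPM of 6 nucleoporin genes (panels) in each library (points), by group, with mean and SD of 3 libraries in black; every axis starts at 0. NUP62, NUP93 and NUP98 are lowest with KPT-330+CS, RANBP2 is lowest with KPT-330, and the TPR values of KPT-330+CS and DMSO overlap.

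Of the 9 outer ring genes, which form the Y-shaped scaffold on both faces of the pore, 8 fell, with a median of −0.48. NUP160 had 305, 325 and 336 CPM with KPT-330+CS, 386, 394 and 388 CPM with KPT-330, 421, 418 and 398 CPM with CS, and 436, 477 and 518 CPM with DMSO. All 3 treatments were below DMSO in every library. NUP37 had 56.9, 59.7 and 63.8 CPM with KPT-330+CS, 64.3, 63.5 and 60.6 CPM with KPT-330, 84, 79.3 and 72.1 CPM with CS, and 77.7, 90.6 and 99.6 CPM with DMSO. AHCTF1, whose product ELYS brings the ring to chromatin after mitosis, had 76.8, 81.9 and 85.6 CPM with KPT-330+CS, 81.3, 87.4 and 85 CPM with KPT-330, 108, 106 and 95.9 CPM with CS, and 106, 118 and 125 CPM with DMSO. In both genes the KPT-330+CS and KPT-330 values lay close together and below the others. SEC13, which also serves the coat of vesicles leaving the endoplasmic reticulum, had 78.7, 70.4 and 57.3 CPM with KPT-330+CS, 94.5, 91.2 and 97.6 CPM with KPT-330, 75.9, 86.7 and 105 CPM with CS, and 126, 104 and 81.2 CPM with DMSO. Its DMSO libraries ranged widely, and it fell by 0.59 ± 0.15 on the log2 scale (SE, adjusted p = 0.00471). NUP85 had 82.7, 84.7 and 80.4 CPM with KPT-330+CS, 108, 109 and 109 CPM with KPT-330, 97.1, 99.6 and 106 CPM with CS, and 118, 113 and 104 CPM with DMSO. Its KPT-330 and CS values overlapped with DMSO and those with both drugs did not, at −0.43. NUP133 had 110.3, 120.3 and 129 CPM with KPT-330+CS, 131, 137 and 131 CPM with KPT-330, 136, 134 and 126 CPM with CS, and 141, 155 and 169 CPM with DMSO and differed by −0.37 with both drugs. NUP43 was the exception, with 80.3, 87.9 and 88.8 CPM with KPT-330+CS, 88.2, 91.4 and 87.3 CPM with KPT-330, 84.9, 80.9 and 74.4 CPM with CS, and 74, 84.4 and 93.6 CPM with DMSO, and its KPT-330+CS and DMSO values overlapped (log2 fold change 0.03, adjusted p = 0.781). NUP107 (−0.41) and SEH1L (−0.48), which also acts in nutrient sensing, completed the ring.

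NUP98 and its partner RAE1, which take part in mRNA export, both fell. The NUP98 gene also encodes NUP96, an outer ring protein cut from the same precursor, so its counts cover both. NUP98 had 223, 228 and 237 CPM with KPT-330+CS, 272, 275 and 272 CPM with KPT-330, 328, 319 and 309 CPM with CS, and 332, 359.7 and 378 CPM with DMSO. The 4 groups did not overlap, and the difference with both drugs was −0.64 ± 0.05 (SE), adjusted p = 4.59e-07. RAE1 had 119, 119 and 123 CPM with KPT-330+CS, 135, 132 and 138 CPM with KPT-330, 138, 136 and 134 CPM with CS, and 150.4, 153 and 162 CPM with DMSO, and fell less, by 0.36 ± 0.05 (SE, adjusted p = 1.73e-05).

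In the nuclear basket, NUP50 and NUP153 fell and TPR was not called. NUP50, which helps release import cargo, had 88.7, 95 and 99.3 CPM with KPT-330+CS, 104, 107 and 102 CPM with KPT-330, 156, 151 and 144 CPM with CS, and 140.0, 157 and 161 CPM with DMSO. The 6 libraries with KPT-330 were below the 6 without it, and NUP50 differed by −0.69 ± 0.06 (SE), adjusted p = 7.85e-07 with both drugs. NUP153, which anchors the basket, had 106, 115 and 123 CPM with KPT-330+CS, 132, 134 and 129.98 CPM with KPT-330, 145, 146 and 137 CPM with CS, and 139, 162 and 173 CPM with DMSO, a difference of −0.46 ± 0.08 (SE), adjusted p = 0.000149. TPR, the main filament of the basket, had 342, 363 and 389.7 CPM with KPT-330+CS, 342, 343 and 333 CPM with KPT-330, 388, 377 and 339.8 CPM with CS, and 333, 372 and 414 CPM with DMSO. All of its groups overlapped with DMSO, and its difference was −0.03 ± 0.08 (SE, adjusted p = 0.757).

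All 4 cytoplasmic filament genes fell with both drugs. NUP214, an XPO1 docking site, had 82.8, 82.3 and 77.9 CPM with KPT-330+CS, 106, 100.5 and 101 CPM with KPT-330, 97.8, 103 and 104 CPM with CS, and 113, 108 and 106 CPM with DMSO, and differed by −0.43 ± 0.05 (SE), adjusted p = 8.94e-06. NUP88, which sits in a complex with NUP214, had 89.7, 93 and 96.9 CPM with KPT-330+CS, 123, 123 and 119 CPM with KPT-330, 107, 105 and 98.6 CPM with CS, and 112, 121 and 127 CPM with DMSO. It differed by −0.36 ± 0.06 (SE), adjusted p = 0.000109 with both drugs, and its KPT-330 libraries lay within the DMSO range. RANBP2, a large FG protein and SUMO ligase that holds RanGAP1 at the pore, had 201, 212 and 228 CPM with KPT-330+CS, 186, 194 and 183 CPM with KPT-330, 307, 303 and 281 CPM with CS, and 249.97, 285 and 317 CPM with DMSO. Here KPT-330 alone was lowest, and the value with both drugs was −0.41 ± 0.08 (SE), adjusted p = 0.000569. NUPL2 (now NUP42), which works with the export helicase DDX19, had 61.1, 59.7 and 63.6 CPM with KPT-330+CS, 62, 64.4 and 62.3 CPM with KPT-330, 64.5, 67.9 and 64 CPM with CS, and 69.6, 68.8 and 71.2 CPM with DMSO. It fell least of the 26, by 0.18 ± 0.05 (SE, adjusted p = 0.00616).

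Of the 5 anchoring genes 3 fell. NUP210, a membrane glycoprotein of the pore, had 124, 112 and 91.6 CPM with KPT-330+CS, 189, 184 and 196 CPM with KPT-330, 148, 181 and 213 CPM with CS, and 215, 179 and 150.4 CPM with DMSO. The CS and DMSO libraries ranged widely and overlapped, and the KPT-330+CS libraries lay below all others, at −0.73 ± 0.14 (SE), adjusted p = 0.00067. NDC1, a membrane protein needed for pore assembly, had 80.4, 84.6 and 89.8 CPM with KPT-330+CS, 103, 109 and 104 CPM with KPT-330, 127, 117 and 109 CPM with CS, and 109, 126 and 133 CPM with DMSO and differed by −0.53 ± 0.08 (SE), adjusted p = 6.17e-05. AAAS, whose product ALADIN is held at the pore by NDC1, had 42.4, 37.9 and 33.3 CPM with KPT-330+CS, 52.9, 48 and 50.9 CPM with KPT-330, 35.4, 44.5 and 52.2 CPM with CS, and 56.5, 45 and 37.5 CPM with DMSO. Its KPT-330+CS and DMSO values overlapped and the difference of −0.29 ± 0.15 did not pass (adjusted p = 0.117). The near-identical pair POM121 and POM121C had small differences, and POM121 turned to 0.07 with library size alone. POM121 had 62.7, 59.6 and 53.7 CPM with KPT-330+CS, 64.8, 65.5 and 64.9 CPM with KPT-330, 56.5, 61 and 64.1 CPM with CS, and 68.5, 62.7 and 59.7 CPM with DMSO, with −0.12 ± 0.07 (SE, adjusted p = 0.177). POM121C had 47.4, 45.5 and 44.7 CPM with KPT-330+CS, 50.9, 49.5 and 49.9 CPM with KPT-330, 49.6, 52.9 and 51.6 CPM with CS, and 54.7, 55.6 and 49.3 CPM with DMSO, with −0.21 ± 0.06 (SE, adjusted p = 0.0068). Their promoters share 273 of 314 aligned positions (86.9%), including the TTCCGG stretch shown above for POM121, and reads may be split between them. Summed as 1 gene the pair was called, at −0.16 (adjusted p = 0.0354).

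**Figure D3:**
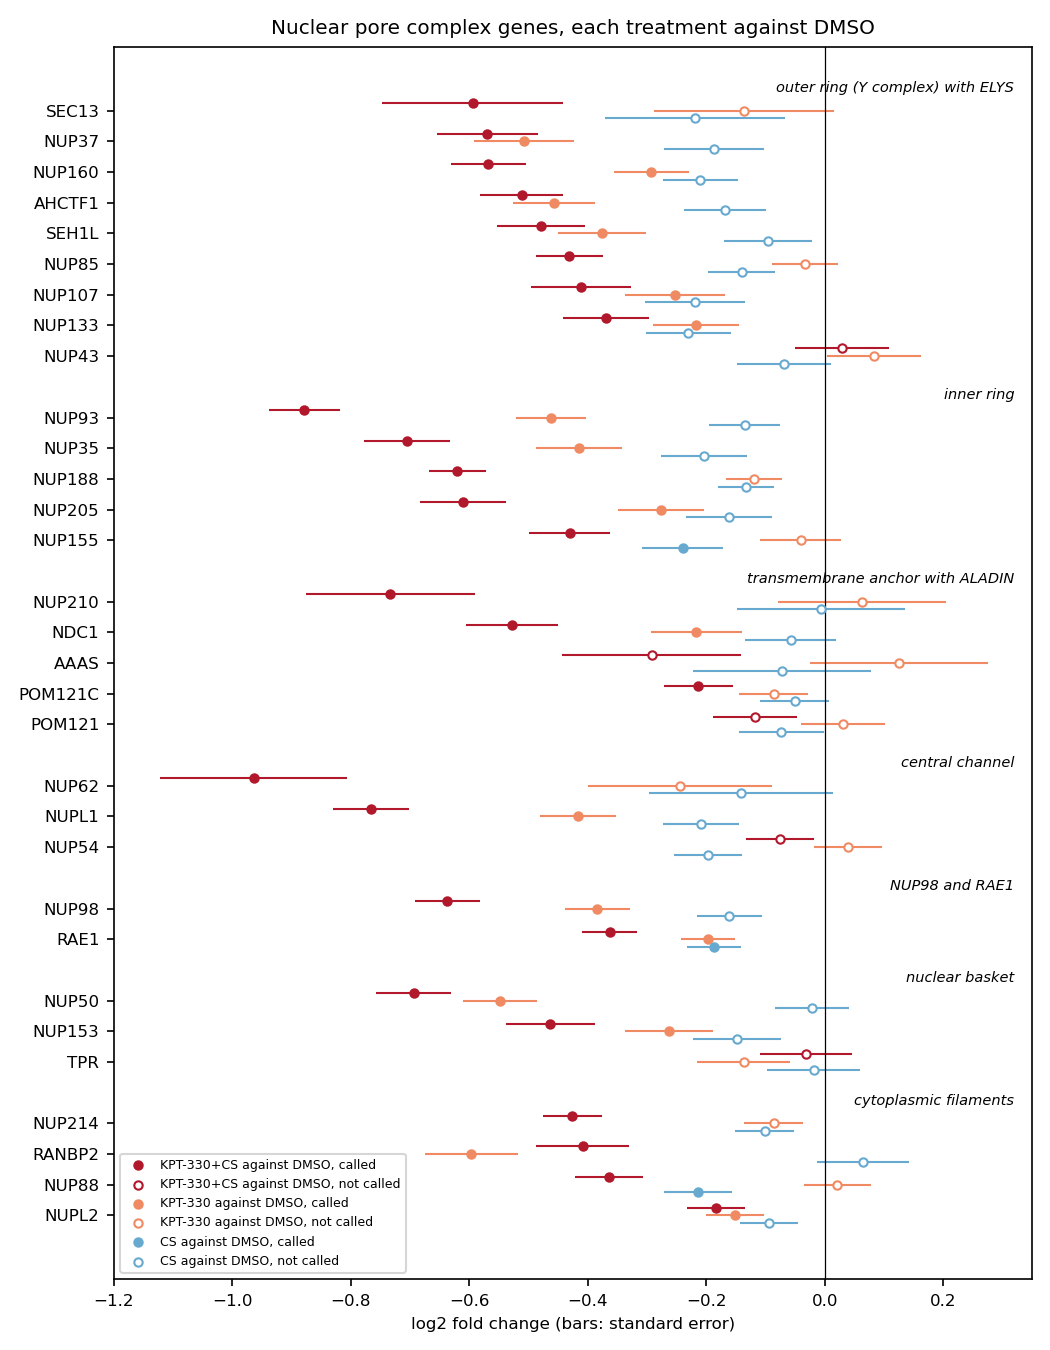
Log2 fold change against DMSO (horizontal, bars show the standard error) of each nucleoporin gene (vertical, grouped by place in the pore) with KPT-330+CS, KPT-330 and CS; filled points are called at an adjusted p of 0.05 or less. The KPT-330+CS points reach from −0.96 in NUP62 to 0.03 in NUP43, and RANBP2 is the gene with its KPT-330 point farthest left.

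With KPT-330 alone against DMSO, 17 of the 31 genes fell and none rose, against 23.8% of all genes lower and 24.7% higher. The median was −0.22, and 0.04 over all genes. Outer ring genes fell in 6 of 9 cases, inner ring genes in 3 of 5, basket genes in 2 of 3, filament genes in 2 of 4, channel genes in 1 of 3 and anchors in 1 of 5, and NUP98 and RAE1 both fell. Numbers in brackets after a gene are log2 fold changes. RANBP2 fell most, by 0.60 ± 0.08 on the log2 scale (SE, adjusted p = 3.98e-05), followed by NUP50 (−0.55), NUP37 (−0.51), NUP93 (−0.46) and AHCTF1 (−0.46). All KPT-330 libraries of these 5 genes lay below all DMSO libraries. NUP98 fell by 0.38 and NUP153 by 0.26. The smallest differences called were in NUPL2 (−0.15), RAE1 (−0.20), NDC1 (−0.22), NUP133 (−0.22) and NUP107 (−0.25), and NDC1 was the 1 called gene whose groups overlapped. NUP62 (−0.24), TPR (−0.14), NUP214 (−0.09), POM121C (−0.09), NUP88 (0.02), POM121 (0.03) and NUP210 (0.06) did not pass. NDC1, NUP107 and NUP133 lost the call without DMSO replicate 2 or 3 or KPT-330 replicate 1 or 3, at adjusted p of up to 0.504 over all alternatives, and NUPL2 without DMSO replicate 3 or KPT-330 replicate 1 or 3. TPR gained a call without DMSO replicate 1 and NUP188 without DMSO replicate 3. Scaling by library size alone moved the median of all genes to 0.20, against 0.04, and left 10 genes lower and 3 higher (NUP43, NUP54 and NUP88).

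With CS alone against DMSO, 3 of the 31 genes fell and none rose, against 5.13% of all genes lower and 3.76% higher. The median was −0.14, and −0.01 over all genes, and 30 of the 31 estimates were below 0. The 3 were NUP155 (−0.24 ± 0.07, SE, adjusted p = 0.0462), NUP88 (−0.21 ± 0.06, adjusted p = 0.0336) and RAE1 (−0.19 ± 0.05, adjusted p = 0.0245). In each, the 3 CS libraries lay below the 3 DMSO libraries. RANBP2 was the gene with an estimate above 0, at 0.06, and NUP62 (−0.14), NUP98 (−0.16), NUP153 (−0.15), NUP214 (−0.10), NUP210 (−0.01), TPR (−0.02), POM121 (−0.07) and POM121C (−0.05) did not pass. The count rests on single libraries: it was 14 without DMSO replicate 1, 0 without DMSO replicate 2, DMSO replicate 3 or any of the CS replicates, 1 without any of the KPT-330 replicates or KPT-330+CS replicate 2, and 2 without KPT-330+CS replicate 1. After correction for GC content it was 18, with RANBP2 called higher, and with DESeq2 it was 0. The shares of all genes called under these alternatives are not given here.

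The series' design text lists KPT-330+CS, KPT-330 and CS against DMSO and CS against KPT-330; the comparisons that follow between KPT-330+CS and each single drug, and the interaction, were added here. With KPT-330+CS against KPT-330, which shows what adding CS did, 17 of 31 genes fell and none rose, against 17.9% of all genes lower and 19.7% higher (median −0.25, and 0.00 over all genes). All 5 inner ring genes fell, and none of the 3 basket genes was called. NUP210 fell most, by 0.80 ± 0.14 (SE, adjusted p = 0.000802), then NUP62 (−0.72), NUP188 (−0.50), SEC13 (−0.46) and AAAS (−0.42). In these 5 genes every library with both drugs lay below every KPT-330 library. SEC13 and AAAS kept the call only in part: without any 1 of the 3 KPT-330 replicates, CS replicate 2, or KPT-330+CS replicate 2 or 3 they lost it, and AAAS also without DMSO replicate 2, at adjusted p of up to 0.173 over all alternatives. The smallest called differences were RAE1 (−0.17, lost without KPT-330 replicate 3), NUP98 (−0.25), NUP160 (−0.28), NUP35 (−0.29) and NDC1 (−0.31). NUP214 differed by −0.34 and NUP88 by −0.39, both called. NUP153 (−0.20), POM121 (−0.15), POM121C (−0.13) and TPR (0.11) did not pass. RANBP2 had 201, 212 and 228 CPM with KPT-330+CS, against 186, 194 and 183 CPM with KPT-330: the groups did not overlap, with 0.19 ± 0.08 (SE, adjusted p = 0.0746), which passed with library size alone, in a fit of the compared groups, and without DMSO replicate 1 (adjusted p = 0.0208) or DMSO replicate 3 (adjusted p = 0.0183).

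KPT-330+CS against CS compares libraries with and without KPT-330, and perhaps with and without its DMSO. There 22 of 31 genes fell and none rose, against 21.7% of all genes lower and 26.1% higher. The median was −0.34, and 0.04 over all genes. NUP62 (−0.82), NUP93 (−0.74), NUP210 (−0.73), NUP50 (−0.67) and NUPL1 (−0.56) fell most, and NUP93 had an adjusted p of 3.80e-07. NUP98 differed by −0.48, RANBP2 by −0.47, NUP214 by −0.32 and NUP153 by −0.32, all called. The smallest called differences were in NUP88 (−0.15), POM121C (−0.16), RAE1 (−0.18), NUP155 (−0.19) and NUP85 (−0.29). TPR (−0.01) and POM121 (−0.04) did not pass. Every called gene had its 3 libraries with both drugs below its 3 CS libraries, which was not counted over all genes. With library size alone 2 genes rose. NUP88, POM121C and NUP155 lost the call without single libraries (CS replicate 2 or KPT-330+CS replicate 2 in all 3 genes), at adjusted p of up to 0.613, 0.617 and 0.314 over all alternatives.

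With CS against KPT-330, 9 of the 31 genes were higher and 3 lower, against 20.2% of all genes higher and 22.6% lower (median 0.06, and −0.04 over all genes). RANBP2 had 307, 303 and 281 CPM with CS, against 186, 194 and 183 CPM with KPT-330. The groups did not overlap, with 0.66 ± 0.08 (SE), adjusted p = 2.26e-05. NUP50 (0.53), NUP93 (0.33), NUP37 (0.32) and AHCTF1 (0.29) followed, and NUP98 (0.22), SEH1L (0.28), NUP35 (0.21) and NUPL1 (0.21) were also higher with CS. NUP54 (−0.24), NUP88 (−0.24) and NUP155 (−0.20) were lower with CS. All 12 had groups that did not overlap, which was not counted over all genes. NUP35, NUPL1 and NUP155 lost the call without KPT-330 replicate 1 or 3 or without CS replicate 2, at adjusted p of up to 0.138, 0.088 and 0.15 over all alternatives. NUP153 (0.11), NUP214 (−0.02), TPR (0.12), NUP62 (0.10), NUP210 (−0.07), POM121 (−0.10) and POM121C (0.04) did not pass.

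The interaction asks whether the difference with both drugs departs from the sum of the 2 single-drug differences on the log2 scale. Of the 31 genes 5 were below that sum and none above, against 6.62% of all genes below and 8.04% above (median −0.09, and 0.01 over all genes). NUP210 departed most, by −0.79 ± 0.20 (SE), adjusted p = 0.0199. NUP188 departed by −0.37 ± 0.07 (SE), adjusted p = 0.00325. NUP93 (−0.28), NUP85 (−0.26) and NUP214 (−0.24) had adjusted p of 0.0403, 0.0459 and 0.0394 in that order. These 5 come from 4 different parts of the pore. NUP62 (−0.58), RANBP2 (0.12), NUP98 (−0.09), NUP153 (−0.05), NUP88 (−0.17), TPR (0.12), POM121 (−0.08) and POM121C (−0.08) did not pass. Single libraries decide this count: it was 1 without CS replicate 2, DMSO replicate 2, DMSO replicate 3 or KPT-330 replicate 3, 2 without CS replicate 3, KPT-330 replicate 1, KPT-330+CS replicate 2 or KPT-330+CS replicate 3, and 3 without KPT-330 replicate 2 or KPT-330+CS replicate 1. It was 6 without DMSO replicate 1 and 5 without CS replicate 1. NUP188 kept its call in every alternative. All these comparisons share libraries with one another, so their values are given side by side only.

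Libraries of 1 group differed in how levels varied with the GC content of transcripts, and nucleoporin genes differ in GC content, from 37.7% in RANBP2 to 57.8% in NUP62. Across all genes, log2 level changed per 10 points of GC by 0.135, 0.027 and −0.160 in the KPT-330+CS libraries, by 0.215, 0.206 and 0.242 in the KPT-330 libraries, by −0.243, −0.108 and 0.064 in the CS libraries and by 0.093, −0.138 and −0.334 in the DMSO libraries. All 8 nucleoporin genes with at least 50% GC were higher in DMSO replicate 1 than in DMSO replicate 3, and 21 of the other 23 were lower. Across the 31 genes, which are not independent, the difference between those 2 libraries went with GC content at Pearson's r = 0.874 and Spearman's rho = 0.778. The interaction went with GC at r = −0.692 (rho = −0.652) and the difference between KPT-330+CS and KPT-330 at r = −0.602, and the difference between KPT-330+CS and DMSO at r = −0.163. Levels were also corrected for the GC trend of each library relative to the mean over all 12 libraries. This removes GC trends that differ between groups too, and with them any part of a treatment difference that follows GC content. With that correction, 28 nucleoporin genes fell with KPT-330+CS, 21 with KPT-330 and 27 in KPT-330+CS against KPT-330. NUP62 then differed by −1.10 and NUP210 by −0.86 with KPT-330+CS against DMSO. Under that correction NUP43, NUP54, NUP88 and NUP155 were higher with KPT-330, and NUP210 was lower, at −0.21. Left out together, the DMSO, CS and KPT-330+CS libraries with the lowest slopes, an alternative chosen after seeing the data, gave 27 genes lower with KPT-330+CS. Shares of all genes called are not given for these alternatives, so the counts under them have no background beside them. The part of GC content in the differences above was not otherwise tested.

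**Figure D4:**
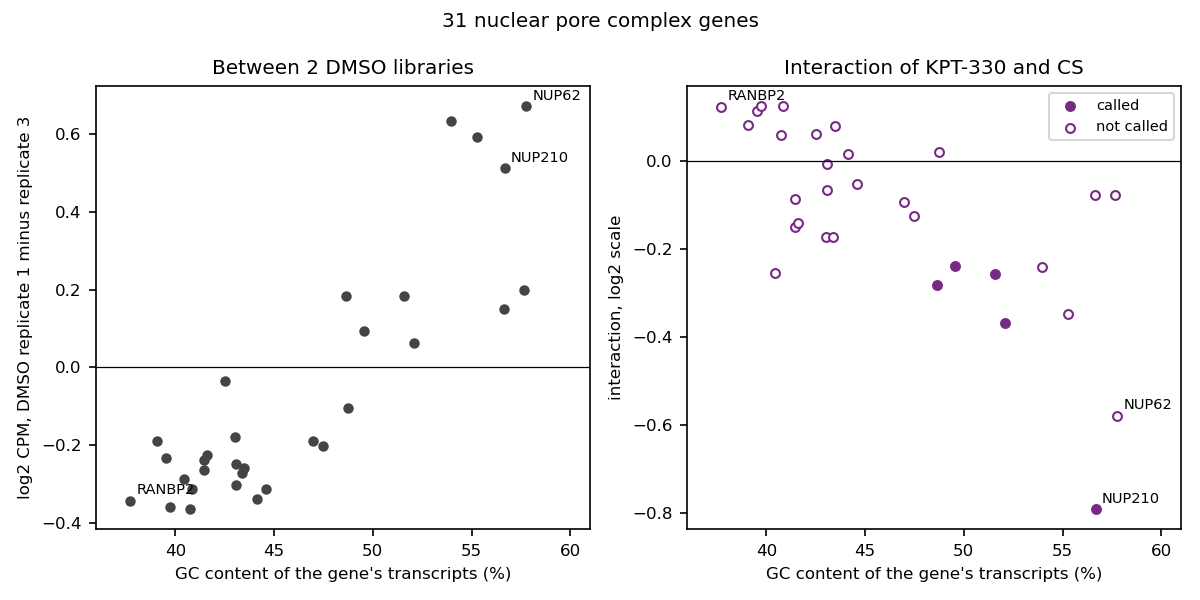
GC content of each nucleoporin gene's transcripts (horizontal, percent) against its log2 CPM in DMSO replicate 1 minus replicate 3 (left) and against its interaction on the log2 scale (right, filled where called). Points rise with GC at left (r = 0.874) and fall at right (r = −0.692), with NUP62 and NUP210 at the high-GC end and RANBP2 at the low end.

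Some gene models overlap others, on the opposite or on the same strand. On the opposite strand in GENCODE 44, NUP62 shares 9.38% of its exon bases with ATF5, POM121 9.12% with the pseudogene NSUN5P2 and NUP43 5.02% with PCMT1. ATF5 held 50168 reads over all libraries, against 24023 for NUP62. NUP88 overlaps RABEP1 there, in a longer NUP88 model than the one counted. On the same strand, NUP62 shares 5.58% of its exon bases with IL4I1 (2076 reads) and 6.38% with an unnamed protein-coding gene (4528 reads). NUP188 shares 3.53% with another such gene (8819 reads, against 88875 for NUP188). The library kit does not mark strand, so reads of such pairs cannot be told apart in the shared bases, and how they were counted is not stated. The 7 RGPD genes, near copies of RANBP2, held 448 reads, 0.315% of those of RANBP2, and summing them with it left RANBP2 at −0.41 with KPT-330+CS.

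Genes that work beside the pore were read from 4 lists, whose counts stand beside 26.2% of all tested genes lower and 29.3% higher with KPT-330+CS. Of 10 SUMO and Ran partners of the pore, 7 fell and 1, SENP2, rose with KPT-330+CS (median −0.55). RANBP1, which helps release Ran from exporters, had 126, 113 and 111 CPM with KPT-330+CS, against 256, 229 and 204 CPM with DMSO (−0.98 ± 0.08 (SE), adjusted p = 4e-07). RANGAP1, the Ran GTPase activator that RANBP2 holds, had 91.4, 78.8 and 58.3 CPM with KPT-330+CS, against 191, 137 and 96.6 CPM with DMSO and differed by −0.90. RAN had 789.9, 819 and 832 CPM with KPT-330+CS, against 1385, 1398 and 1448 CPM with DMSO and differed by −0.79. All 6 treated and control values of RANBP1, and of RAN, were separated by group, and those of RANGAP1 nearly met.

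Of 24 mRNA export factors, 11 fell and 1, ZC3H11A, rose (median −0.13), against 26.2% lower and 29.3% higher over all genes. The helicase DDX39A (−1.22), the adaptor ALYREF (−0.97) and the cap-binding protein NCBP1 (−0.80) fell most, and the main export receptor NXF1, which passes through FG repeats, had 95.6, 93.2 and 87.6 CPM with KPT-330+CS, against 97.4, 97.6 and 88.8 CPM with DMSO and did not pass (−0.04). Of 18 lamina and inner nuclear membrane genes, 6 fell and 5 rose (median −0.14), shares close to those of all genes. LBR (−1.24) and LMNB1 (−1.10) fell, SYNE1, which links the nucleus to the cytoskeleton, rose (1.27), and LMNA did not pass (0.40). Of 16 genes listed for membrane closure and pore assembly, which include general cell cycle genes, 10 fell and none rose (median −0.21). The cyclin B1 gene CCNB1 (−1.65), its kinase partner CDK1 (−1.61) and the importin gene KPNB1 (−1.04) fell most, and VPS4B did not pass (0.00). With KPT-330 alone, where 23.8% of all genes were lower and 24.7% higher, the counts lower and higher were 5 and 0 for the Ran and SUMO partners, 10 and 2 for mRNA export, 4 and 4 for the lamina list and 12 and 0 for closure and assembly.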

How the data were processed

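The authors extracted RNA with an AllPrep FFPE kit, made unstranded poly(A) libraries (TruSeq RNA V2) and sequenced them on an Illumina HiSeq, per the labels' protocols. They deposited raw read counts per gene of Ensembl 78, from STAR alignments to hg38 in a modified MAP-RSeq pipeline, per the series' design text. The counting program, its strand setting and tool versions are not stated in the material used. All 12 count columns were used, and 0 were left out.

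From those counts, 19460 genes passing filterByExpr were fitted over all 12 libraries at once, by group alone (8 residual degrees of freedom), with edgeR 4.0.16 (TMM, robust quasi-likelihood F-test, two-sided), in R 4.3.3, with Benjamini-Hochberg adjustment over all tested genes of a comparison. All 31 nucleoporin genes passed the filter. A gene is called at an adjusted p of 0.05 or less. SE is the log2 fold change divided by the root of F, without its sign. The script was tested on simulated data. No 2 replicates agreed within sampling noise.

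Named genes were, per comparison, the called members with the 5 highest and 5 lowest log2 fold changes, 10 members fixed by name, and from each neighbouring list up to 3 called genes and 1 not called. One such gene is not reported here. The members and lists were chosen with earlier results of these data known. Alternatives were another filter or none, DESeq2 1.42.0, limma 3.58.1 (voom), a likelihood ratio test, DESeq2 size factors, library size alone, GC correction (lowess), replicate block, only the groups compared, near-identical genes summed, and each library left out. Genome positions are those of hg38 (GRCh38). GENCODE 44 supplied exon overlaps and GC content (97.0% of tested genes), RefSeq the promoters.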

Additional observations from a re-analysis of the deposited data

Results flagged for a closer look

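In 5 of the 31 nucleoporin genes the interaction term of edgeR's quasi-likelihood test was called (3 libraries in each of 4 groups). All 5 were below 0, against 6.62% of all genes below and 8.04% above. Only the NUP188 call held in every alternative. The difference with both drugs lay below the sum of the single-drug differences, on the log2 scale, by −0.79 ± 0.20 in the membrane anchor gene NUP210 (SE, adjusted p = 0.0199). It lay below the sum by −0.37 ± 0.07 in NUP188 (SE, adjusted p = 0.00325), −0.28 ± 0.08 in NUP93 (adjusted p = 0.0403), −0.26 ± 0.08 in NUP85 (adjusted p = 0.0459) and −0.24 ± 0.07 in NUP214 (adjusted p = 0.0394). In NUP188, CS differed from DMSO by −0.13 and KPT-330+CS from KPT-330 by −0.50. In NUP210 these 2 differences were −0.01 and −0.80. Across the 31 genes the interaction went with GC content at Pearson's r = −0.692. GC content was 52.1% in NUP188, 51.6% in NUP85, 49.5% in NUP214 and 48.6% in NUP93. NUP210 has the third highest GC content among the 31 genes, 56.7%, and with levels corrected for GC content its interaction was −0.62 (adjusted p = 1.16e-05). That correction raised the number of the 31 genes called below the sum, as counted further down, so a lower adjusted p there is not particular to NUP210. The share of all genes called under it is not given. NUP93, NUP85 and NUP214 were not called without DMSO replicate 2 or without DMSO replicate 3, and neither was NUP210.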

How the results depend on the processing

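Of 2424 values of named genes under alternatives, 2217 kept their side of the threshold, 139 lost a call, 60 gained one and 8 reversed. A value was counted as reversed only where its sign changed and it was called in either fit. Values called in neither fit count as kept even where their sign changed, as for TPR with KPT-330+CS against DMSO in 7 alternatives. With KPT-330+CS against DMSO 23 of 26 calls held in every alternative, and in the other comparisons 10 of 17 (KPT-330), 0 of 3 (CS), 14 of 17 (KPT-330+CS against KPT-330), 18 of 22 (KPT-330+CS against CS), 9 of 12 (CS against KPT-330) and 1 of 5 (interaction).

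The GC correction, alone and with the replicate block, gave the same counts in both fits: 4 higher with KPT-330, 1 higher and 18 lower with CS, 27 lower in KPT-330+CS against KPT-330, 1 higher in KPT-330+CS against CS, 6 lower in CS against KPT-330 and 17 below the sum in the interaction. NUP210 reversed in KPT-330 against DMSO (0.06) to −0.21 without and −0.21 with the replicate block, and POM121 (0.03) to −0.31 in both. In CS against KPT-330, NUP210 (−0.07) reversed to 0.17 in both, and POM121 (−0.10) to 0.20 in both.

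The replicate block alone gave 0 lower with CS and 2 in the interaction. It is not a paired design: samples with the same number deviated together (r over 0.1) in 2 of 18 pairs, with r from −0.384 to 0.401.

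Library size alone gave 3 higher and 10 lower with KPT-330, 2 higher with KPT-330+CS, 1 higher against KPT-330, 2 higher against CS, and 5 lower in CS against KPT-330. It moved the median of all genes to 0.226 with KPT-330+CS against DMSO, against 0.041. For CS, the count lower was 0 with DESeq2, DESeq2 size factors or only the groups compared, 5 with a 1 CPM filter and 1 with no filter. The 1 CPM filter gave 1 higher in KPT-330+CS against CS, and only the groups compared 1 higher in KPT-330+CS against KPT-330. The interaction count was 3 with the likelihood ratio test and 2 with no filter. Without the 3 libraries of lowest GC slope, an alternative chosen after seeing the data, 1 was higher with KPT-330, 1 lower with CS and 3 below the sum. The cause of these changes was not tested. Shares of all genes called are given only for the fit by group with TMM, so counts under alternatives have no background beside them.

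Leaving out 1 library gave 0 to 14 lower with CS, 0 to 1 higher in KPT-330+CS against KPT-330, and 1 to 6 in the interaction. Counts lower ranged over 26 to 26 with KPT-330+CS and 13 to 18 with KPT-330. With 3 libraries a group, differences of the size of the standard errors (0.05 to 0.16 with KPT-330+CS) cannot be resolved.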
